A study of Rattus norvegicus with 6 samples.

Results

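The genes described here encode the enzymes of the tricarboxylic acid (TCA) cycle, the reactions that refill it, the carriers and transaminases of the malate-aspartate shuttle, and the breakdown of branched-chain amino acids and ketone bodies. They were taken from a list of 39 genes, each matched to the array through the RefSeq accession of its probes, with the brightest probe standing for the gene. Of the 39, 35 had a matched probe and all 35 were tested, among 11580 named genes tested in all. Slc25a12, Slc25a13, Mmut and Auh had no matched probe and were not analysed here.

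Ventricular myocytes were isolated from Sprague-Dawley rat pups, 1 to 2 days old and labelled male, and their RNA was measured on 1-colour Agilent arrays. After 36 h of culture the cells received 50 nmol/L of an siRNA against uc.323 (si-uc.323) or of a scrambled siRNA (si-scramble) for 3 h, followed by 21 h without serum, and were harvested at 24 h. There were 3 arrays per group, from experiments called independent. Whether they shared litters is not given in the sources used here, so the p-values cover the spread among these arrays, which may be technical. uc.323 is a transcribed ultraconserved region, and the study sought its targets in hypertrophy, the enlargement of heart muscle cells. The cultures of both groups had been preplated to remove fibroblasts and grown with 5-bromodeoxyuridine. No value for uc.323 itself was used here, so its knockdown was not checked.

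The TCA cycle oxidises acetyl-CoA in the mitochondrial matrix and passes the electrons to the respiratory chain. Heart muscle feeds it from fatty acids, pyruvate, ketone bodies and amino acids. Leucine, isoleucine and valine share their first steps, a transamination and a dehydrogenase complex under the control of a kinase, and then follow separate routes to acetyl-CoA, acetoacetate or succinyl-CoA.

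The arrays of the groups differed in more than the siRNA. The slide of each array was inferred only from the scan times in the file headers, arrays of equal scan time being taken as sharing a slide. By this inference the si-scramble arrays shared slide 1 with si-uc.323 replicate 1, while replicates 2 and 3 of si-uc.323 were on slide 2. On slide 1, 71.8% to 73.9% of probes were well above background, against 78.2% and 86.5% for si-uc.323 replicates 2 and 3. si-uc.323 replicate 3 also differed from the si-scramble mean by brightness: the median log2 difference over all features was 0.46 in the dimmest decile of features and -0.16 in the brightest. Of 8 listed markers of cardiomyocytes, all 8 were tested and none passed, and their summed level, in units of the array's 75th percentile, was 179 to 188 in si-scramble and 176 to 200 in si-uc.323. Groups did not overlap for 5 of these 8, beside 39.1% of all named genes. Ryr2 (log2 fold change -0.46) and Tnni3 (-0.34) were lower, and Myh7 (0.29), Nppa (0.17) and Myl7 (0.16) were higher. For the 8 fibroblast markers the sums were 124 to 134 and 126 to 157, with Postn alone past the threshold (higher). For 5 tested endothelial markers the sums were 11.1 to 12.5 in si-scramble and 5.58 to 8.60 in si-uc.323, none past the threshold. Kdr carried most of that sum (log2 fold change -0.76, groups not overlapping). Pecam1 (-0.30) and Cdh5 (-0.097) were also negative, with overlapping groups. Positive values were those of Tek (0.46, groups not overlapping) and Emcn (0.21, overlapping), both dim, at mean log2 levels of -5.34 and -4.15 in si-scramble. For 5 leukocyte markers they were 4.15 to 4.83 and 3.14 to 3.45, with Cx3cr1 past the threshold (lower). Cd68 was the other with non-overlapping groups (-0.41), while Ptprc (0.06), Csf1r (0.14) and Cd163 (-0.060) overlapped. For 2 tested erythroid markers the sums were 0.855 to 1.09 and 0.592 to 0.659, with Hbb past the threshold (lower). The 4 markers of smooth muscle and pericytes summed to 8.20 to 8.71 and 8.60 to 10.1, and the 3 Schwann and neural markers to 0.730 to 1.12 and 0.733 to 0.872, with none past the threshold. The part of these differences in the results below was not tested, and in bulk RNA fewer cells of a type and less RNA per cell cannot be told apart.

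None of the 35 genes passed the threshold in either direction (limma, adjusted p under 0.05 over all features), where 6.14% of all named genes did, 3.26% higher and 2.88% lower. Their log2 fold changes, si-uc.323 minus si-scramble, ran from -0.60 (Oxct1) to 0.40 (Pccb), with 19 negative and 16 positive values and a median of -0.03, beside a median of 0.02 over all named genes. At an unadjusted p under 0.05 there were 10 of the 35, 7 of them negative and 3 positive, beside 30.1% of all named genes. The 3 values of a group lay apart from those of the other group for 11 genes, 8 lower and 3 higher with si-uc.323, beside 39.1% of all named genes (19% lower and 20.1% higher). Both shares are near or below the background of the whole table. All 35 unadjusted 95% intervals lay between -1 and 1, that is, within a 2-fold change, and the median distance from the estimate to the end of its interval was 0.33. The smallest log2 difference that passed anywhere among the named genes was 0.45 in size.

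The 4 genes with the lowest p-values all had negative log2 fold changes. They were Mccc1, a subunit of the leucine enzyme methylcrotonyl-CoA carboxylase (adjusted p = 0.0596), Oxct1, which activates ketone bodies (0.0677), Hibadh, a dehydrogenase of valine breakdown (0.0883), and Bcat2, the mitochondrial branched-chain aminotransferase (0.0885), by limma with Benjamini-Hochberg adjustment. Because these 4 lie lowest, the 250 bases before their annotated starts are shown, from RefSeq (build GRCr8), 5′ to 3′ in the direction of the gene. Capitals mark exact matches, on either strand, to the CCAAT box (CCAAT), the GC box (GGGCGG) or the NRF1 site.
Mccc1, chr2:120779242-120779491, minus strand: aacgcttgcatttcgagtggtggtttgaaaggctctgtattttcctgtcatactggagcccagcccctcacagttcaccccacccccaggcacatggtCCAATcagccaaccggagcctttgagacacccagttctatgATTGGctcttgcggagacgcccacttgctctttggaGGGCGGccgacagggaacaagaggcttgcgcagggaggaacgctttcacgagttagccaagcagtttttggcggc
Oxct1, chr2:54963714-54963963, plus strand: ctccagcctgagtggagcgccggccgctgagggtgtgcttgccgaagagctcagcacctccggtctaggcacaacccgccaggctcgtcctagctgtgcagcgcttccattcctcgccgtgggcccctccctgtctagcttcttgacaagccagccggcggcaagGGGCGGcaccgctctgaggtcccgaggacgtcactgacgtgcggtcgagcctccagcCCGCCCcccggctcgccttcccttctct
Hibadh, chr4:83077820-83078069, minus strand: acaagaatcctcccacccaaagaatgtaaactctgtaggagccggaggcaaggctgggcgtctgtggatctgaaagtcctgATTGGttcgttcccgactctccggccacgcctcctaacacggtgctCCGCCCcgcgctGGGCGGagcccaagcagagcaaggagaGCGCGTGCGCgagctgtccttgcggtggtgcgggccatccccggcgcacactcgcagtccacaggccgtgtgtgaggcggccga
Bcat2, chr1:105178889-105179138, plus strand: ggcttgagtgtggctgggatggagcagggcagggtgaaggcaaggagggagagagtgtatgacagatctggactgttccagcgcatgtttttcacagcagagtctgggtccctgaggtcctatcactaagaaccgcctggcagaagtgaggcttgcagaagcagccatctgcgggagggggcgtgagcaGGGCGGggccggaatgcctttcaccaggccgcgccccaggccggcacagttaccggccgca

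Mccc1 held 2 CCAAT boxes and 1 GC box in this window, Oxct1 held 2 GC boxes and Bcat2 held 1 GC box. Hibadh held 1 CCAAT box, 2 GC boxes and 1 NRF1 site, the binding sequence of a factor known for driving nuclear genes of mitochondrial proteins. No matches overlapped in these 4 windows. Of the 39 listed genes, 35 had a promoter entry, not including Idh3a, Pc, Bckdha and Mccc2. A CCAAT box was present in 20 of these 35 promoters (57.1%) and in 34% of 33469 rat promoters. For the GC box the shares were 22 of 35 (62.9%) and 30.5%, and for the NRF1 site 2 of 35 (5.71%, Hibadh and Sucla2) and 3.75%. The element of the estrogen-related receptors (TCAAGGTCA) was in none of the 35 and in 0.388% of all promoters. The median GC content of the promoters of tested genes was 60%, against 51.2% over all promoters, a difference that bears on matches to GC-rich letters. A match is a description of the letters and not evidence of binding.

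**Figure D1:**
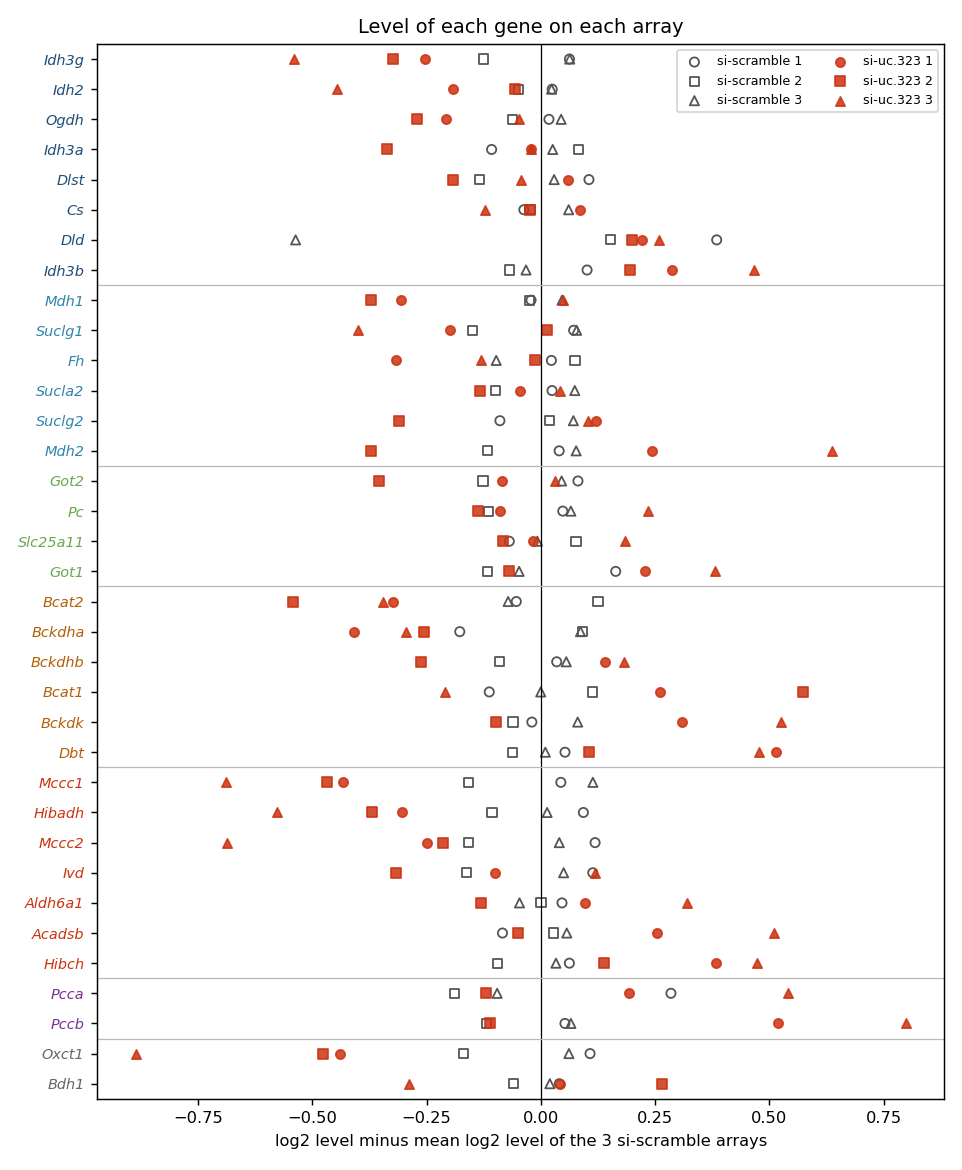
Log2 level of each of the 35 genes on each array, minus the mean of the 3 si-scramble arrays (open grey symbols: si-scramble, filled red symbols: si-uc.323, the symbol giving the replicate); grey lines separate the role groups in the order of the text. The si-uc.323 values of Idh3g, Idh2, Bcat2, Bckdha, Mccc1, Hibadh, Mccc2 and Oxct1 all lie below those of si-scramble, those of Idh3b, Dbt and Hibch above, and the red symbols are more widely spread than the open ones.

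The first part of the cycle joins acetyl-CoA to oxaloacetate and carries out the oxidations from isocitrate to succinyl-CoA. All 8 listed genes were tested, with a median log2 fold change of -0.09, 6 negative and 2 positive values. Idh3g and Idh3b are subunits of the same NAD-dependent isocitrate dehydrogenase. Relative to each array's 75th percentile, Idh3g had log2 levels of 3.92, 3.73 and 3.92 in si-scramble replicates 1 to 3 and of 3.60, 3.53 and 3.31 in si-uc.323 replicates 1 to 3. All si-uc.323 arrays were below all si-scramble arrays, and the log2 fold change was -0.37 ± 0.13 (SE, n = 3 and 3; limma, adjusted p = 0.114). Idh3b had log2 levels of 1.06, 0.89 and 0.93 in si-scramble and 1.25, 1.16 and 1.43 in si-uc.323. Here all si-uc.323 arrays were above, with a log2 fold change of 0.32 ± 0.12 (limma, adjusted p = 0.145). Idh3a, the catalytic subunit of this enzyme, had a log2 fold change of -0.13, with overlapping groups.

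Idh2, the mitochondrial NADP-dependent isocitrate dehydrogenase, had a log2 fold change of -0.23 ± 0.13 (limma, adjusted p = 0.289). Its groups did not overlap, but si-uc.323 replicate 2, at 4.96, lay just under si-scramble replicate 2, at 4.97. Ogdh and Dlst, components of the alpha-ketoglutarate dehydrogenase complex, had log2 fold changes of -0.17 and -0.06, and Cs, citrate synthase, of -0.02 with an unadjusted 95% interval of -0.28 to 0.24. Dld, the lipoamide dehydrogenase shared by several such complexes, had a log2 fold change of 0.23. Its si-scramble arrays were unlike each other, at 2.65, 2.42 and 1.73, while the si-uc.323 arrays were at 2.49, 2.47 and 2.53. Without si-scramble replicate 3 the log2 fold change of Dld was -0.042. Dlst was printed as 10 spots on each array, and the SD between spots of an array was 0.02 to 0.07 on the log2 scale, under its SD between arrays of a group, 0.12 in si-scramble and 0.13 in si-uc.323.

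From succinyl-CoA the cycle returns to oxaloacetate through succinate, fumarate and malate. The 6 listed genes of this part were all tested, 5 with negative values, and every one of them had overlapping groups. Mdh1, the cytosolic malate dehydrogenase, had log2 levels of 1.41, 1.41 and 1.48 in si-scramble and 1.13, 1.06 and 1.48 in si-uc.323, so that replicates 1 and 2 were low and replicate 3 was level with the highest control. Its log2 fold change was -0.21 ± 0.14 (limma, adjusted p = 0.364). Suclg1, the alpha subunit of succinyl-CoA synthetase, had log2 levels of 4.86, 4.64 and 4.87 in si-scramble and 4.59, 4.80 and 4.39 in si-uc.323. In this gene replicate 2 was among the controls, and the log2 fold change was -0.19 ± 0.14 (limma, adjusted p = 0.414). The beta subunits Sucla2 and Suclg2, which set whether the enzyme makes ATP or GTP, had log2 fold changes of -0.05 and -0.03, and Fh, fumarate hydratase, of -0.15. Fh was also printed as 10 spots, and their SD within an array, 0.083 to 0.144, was about as large as its SD between arrays, 0.088 in si-scramble and 0.153 in si-uc.323. The former is an SD of single spots and the latter one of averages over 9 or 10 spots, so they are not like for like. Mdh2, the mitochondrial malate dehydrogenase, had a log2 fold change of 0.17 with si-uc.323 arrays at 0.11, -0.51 and 0.50, the widest spread in that group among the 35 genes (SD 0.51). Without si-uc.323 replicate 3 the value for Mdh2 was -0.064.

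Anaplerosis refills the cycle, chiefly by pyruvate carboxylase, and the malate-aspartate shuttle brings cytosolic reducing equivalents into the mitochondrion. Of 6 listed genes 4 were tested. None had non-overlapping groups and the median log2 fold change was 0.02. Got1, the cytosolic aspartate aminotransferase, had log2 levels of -0.20, -0.48 and -0.41 in si-scramble and -0.14, -0.43 and 0.02 in si-uc.323 (log2 fold change 0.18 ± 0.15; limma, adjusted p = 0.477). Got2, its mitochondrial partner, had log2 levels of 0.04, -0.17 and 0.00 in si-scramble and -0.13, -0.40 and -0.01 in si-uc.323 (-0.14 ± 0.14; limma, adjusted p = 0.558). Single arrays of each gene thus lay inside the other group. Pc, pyruvate carboxylase, had a log2 fold change of 0.00 with an unadjusted 95% interval of -0.32 to 0.33, and Slc25a11, the oxoglutarate-malate carrier, of 0.03 (-0.25 to 0.31).

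The first steps of branched-chain amino acid breakdown had members on either side of 0. All 6 genes were tested, 2 negative and 4 positive, with a median of 0.12. Bcat2 had log2 levels of -0.02, 0.16 and -0.04 in si-scramble and -0.29, -0.51 and -0.31 in si-uc.323. The groups lay apart, and the log2 fold change was -0.40 ± 0.12 (limma, adjusted p = 0.0885), or 1.32-fold lower. Bckdha, the E1 alpha subunit of the branched-chain ketoacid dehydrogenase, was at -0.19, 0.07 and 0.07 in si-scramble and -0.42, -0.27 and -0.31 in si-uc.323 (-0.32 ± 0.12; limma, adjusted p = 0.147). Dbt, the E2 core of the same complex, was at -1.23, -1.35 and -1.28 in si-scramble and -0.77, -1.18 and -0.81 in si-uc.323. Its groups lay apart in the other direction, with replicate 2 closest to the controls (0.37 ± 0.14; limma, adjusted p = 0.147). Bckdhb, the E1 beta subunit, had a log2 fold change of 0.02, and Bckdk, the kinase that inactivates the complex, of 0.25 ± 0.17, with overlapping groups. Bcat1, the cytosolic aminotransferase, had a log2 fold change of 0.21, and its si-uc.323 arrays, at 2.41, 2.72 and 1.94, lay on either side of the si-scramble arrays.

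Without si-uc.323 replicate 2 (limma, 5 arrays), Dbt passed (0.50, adjusted p = 0.0367). So did Pccb, a subunit of propionyl-CoA carboxylase (0.66, adjusted p = 0.0377). In that fit 1859 of all named genes passed, against 711 with all arrays. None of the 35 passed without si-uc.323 replicate 1 or 3, where 451 and 292 of all named genes did. Without si-scramble replicate 1, 2 or 3 only 0, 12 and 0 of all named genes passed, so those fits could show little for the 35.

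Beyond the dehydrogenase the 3 amino acids follow routes of their own. Of 8 listed genes 7 were tested, 4 negative and 3 positive, with a median of -0.10. On the leucine route, Mccc1 had log2 levels of 1.55, 1.34 and 1.62 in si-scramble and 1.07, 1.03 and 0.81 in si-uc.323. All si-uc.323 arrays were below the lowest si-scramble array, and the log2 fold change was -0.53 ± 0.13 (limma, adjusted p = 0.0596), or 1.44-fold lower. Mccc2, the other subunit of that carboxylase, was at 2.86, 2.58 and 2.78 in si-scramble and 2.49, 2.52 and 2.05 in si-uc.323 (-0.38 ± 0.16; limma, adjusted p = 0.176), again with no overlap. Ivd, the isovaleryl-CoA dehydrogenase one step earlier, had a log2 fold change of -0.10 with overlapping groups. Mccc1 passed under cyclic loess normalization, an alternative chosen after seeing the data (-0.50, limma, adjusted p = 0.0468), and its adjusted p was 0.0468 to 0.333 over all alternatives.

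On the valine route, Hibch and Hibadh act in sequence and had values of opposite sign. Hibadh had log2 levels of 3.56, 3.36 and 3.48 in si-scramble and 3.16, 3.10 and 2.89 in si-uc.323, with no overlap (-0.42 ± 0.12; limma, adjusted p = 0.0883). Hibch, the hydrolase before it, was at -0.18, -0.34 and -0.21 in si-scramble and 0.14, -0.10 and 0.23 in si-uc.323, likewise with no overlap (0.33 ± 0.13; limma, adjusted p = 0.148). Hibch was the only one of the 35 genes with more than 1 probe, and its less bright probe gave a log2 difference of 0.22, in which the si-uc.323 value of replicate 1 (-1.03) lay among the si-scramble values. Aldh6a1, the methylmalonate semialdehyde dehydrogenase that follows, had a log2 fold change of 0.10. Acadsb, a dehydrogenase of short branched chains that is not particular to the valine route, had one of 0.24. Both genes had overlapping groups.

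Propionyl-CoA, which arises from isoleucine and valine, enters the cycle through propionyl-CoA carboxylase and methylmalonyl-CoA mutase. Of 3 listed genes 2 were tested. Pccb was at -1.30, -1.47 and -1.29 in si-scramble and -0.83, -1.46 and -0.55 in si-uc.323 (0.40 ± 0.23; limma, adjusted p = 0.29). Pcca was at -2.30, -2.77 and -2.68 in si-scramble and -2.39, -2.70 and -2.04 in si-uc.323 (0.20 ± 0.20; limma, adjusted p = 0.55). In both subunits si-uc.323 replicate 3 was highest and replicate 2 lay among the controls.

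Ketone bodies are taken up from the blood and oxidised in the heart, where Bdh1 and Oxct1 carry out the first steps. Oxct1 had log2 levels of 3.68, 3.41 and 3.64 in si-scramble and 3.14, 3.10 and 2.69 in si-uc.323. It had the largest difference of the 35 genes, -0.60 ± 0.16 (limma, adjusted p = 0.0677), or 1.52-fold lower, and its groups did not overlap. Oxct1 was printed as 10 spots, whose SD within an array was 0.03 to 0.06, against an SD between arrays of 0.15 in si-scramble and 0.25 in si-uc.323. Bdh1 was at -1.41, -1.51 and -1.43 in si-scramble and -1.41, -1.19 and -1.74 in si-uc.323, on either side of the controls (0.01 ± 0.16; limma, adjusted p = 0.984).

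**Figure D2:**
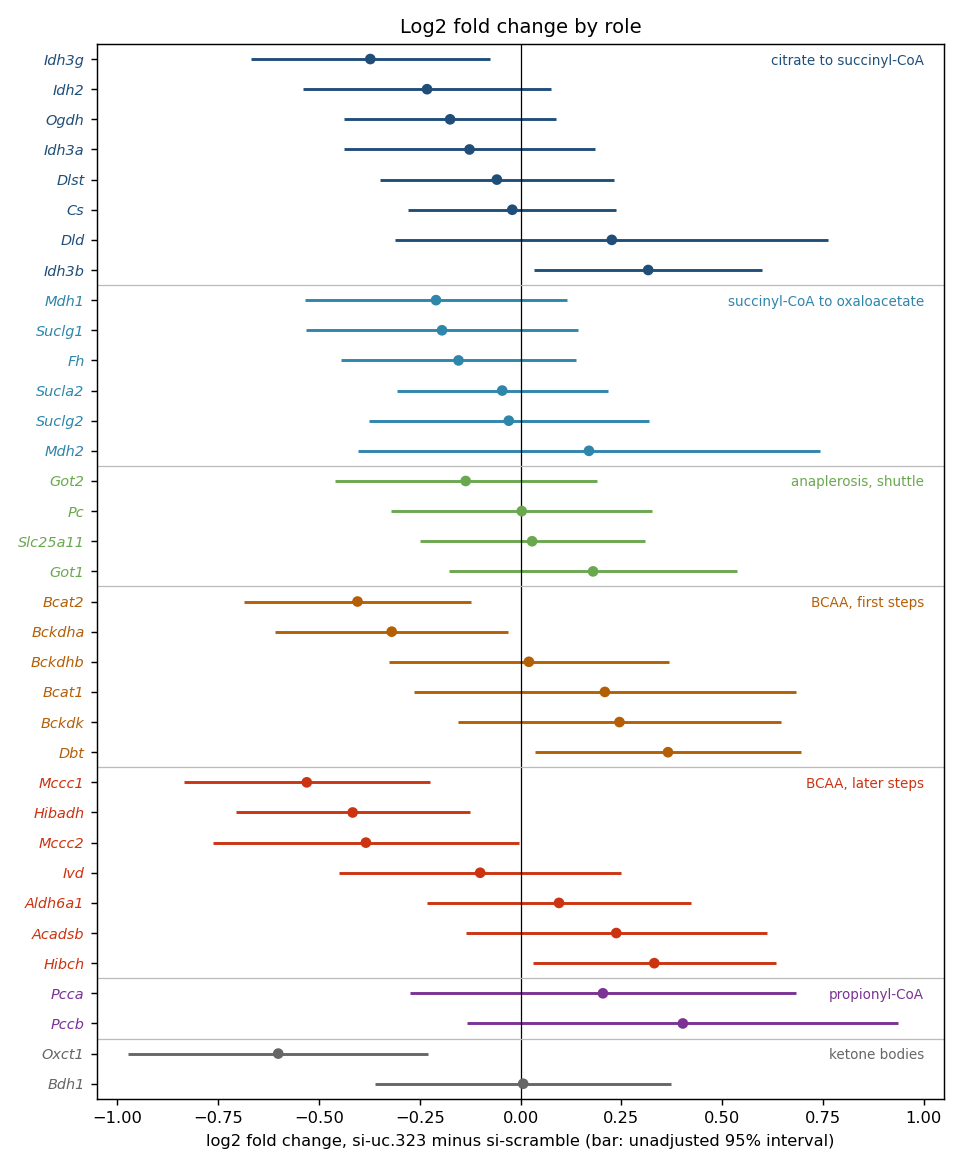
Log2 fold change of each gene, si-uc.323 minus si-scramble (points), with its unadjusted 95% interval from limma (bars), grouped and coloured by role; BCAA stands for branched-chain amino acids. All bars lie between -1 and 1, and 10 of the 35 do not cross 0.

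The si-uc.323 arrays disagreed with each other more than the controls did. The SD within si-uc.323 exceeded that within si-scramble for 31 of the 35 genes, with medians of 0.20 and 0.10. Over all named genes the same was true of 82.0%, with medians of 0.21 and 0.10. The median difference of the 35 genes from the si-scramble mean was -0.02, -0.13 and 0.04 on si-uc.323 replicates 1, 2 and 3. On slide 1 alone, which leaves si-uc.323 replicate 1 against the 3 si-scramble arrays, Oxct1 had a log2 fold change of -0.44, Mccc1 of -0.43, Bcat2 of -0.32 and Hibadh of -0.30, and Dbt one of 0.51. With 1 si-uc.323 array these are values with no replicate check in that group. With the slide as a block only 3 of all named genes passed (limma), so the count of 0 among the 35 says nothing about them.

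Brightness moved with the sign of the differences. Of the 17 genes whose mean level was above the array's 75th percentile, 13 had negative and 4 had positive log2 fold changes, with a median of -0.15. Of the 18 genes below it, 6 were negative and 12 positive, with a median of 0.06. Over all features the medians were -0.06 above and 0.10 below the 75th percentile, with 39.7% and 61.0% of values positive. On si-uc.323 replicate 3 the same medians over all features were -0.15 and 0.27, while on replicate 1 they were -0.09 and -0.002, and on replicate 2 they were both 0.03. The part of brightness in the differences of single genes was not tested. Under quantile normalization, which gives all arrays the same distribution, the log2 fold change was -0.55 for Oxct1, -0.50 for Mccc1, 0.31 for Dbt and 0.36 for Pccb.

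**Figure D3:**
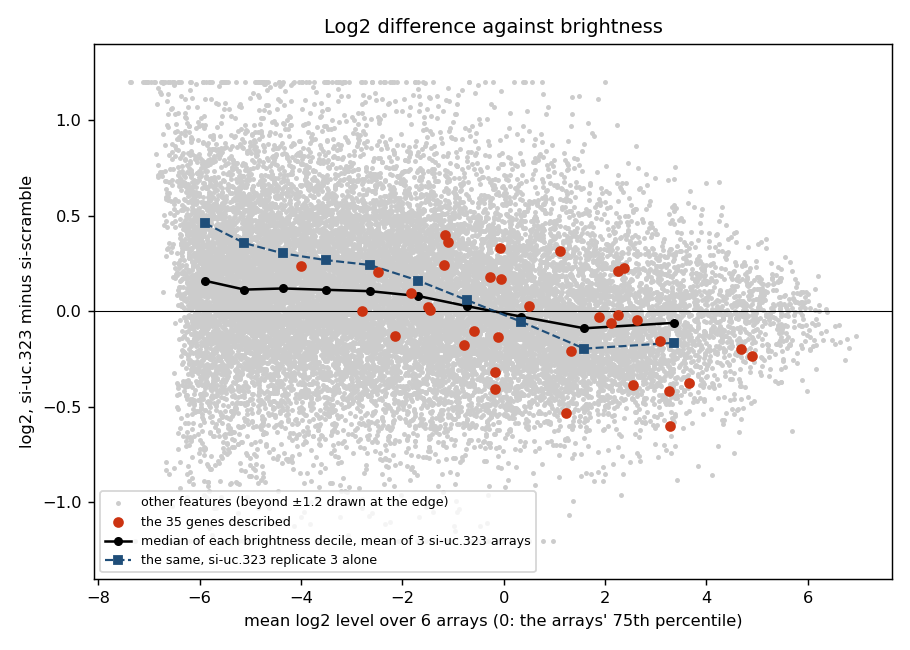
Log2 difference, si-uc.323 minus si-scramble, against mean log2 level over the 6 arrays (red: the 35 genes, grey: other features). Lines join the medians of the 10 brightness deciles, for the mean of the 3 si-uc.323 arrays (black) and for replicate 3 alone (blue, from 0.46 to -0.16).

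Partner genes with a matched role were also compared within each array, as the log2 signal of one probe minus that of the other, a quantity that does not move with the shift used to scale an array. It can still move with brightness where the partners differ in level, as Oxct1 and Bdh1 did (means of 3.57 and -1.45 in si-scramble). That part was not tested. Of 8 listed pairs 7 were measured, and 4 had groups that did not overlap. The share of non-overlapping ratios over other gene pairs was not computed, so this count has no background to be read against. For single named genes the share was 39.1%, and the pairs were chosen with earlier results known. With 3 against 3 arrays an exact permutation test cannot give a p under 0.10, so none of the pairs could pass. Oxct1 over Bdh1 was 5.10, 4.92 and 5.07 in si-scramble and 4.55, 4.29 and 4.43 in si-uc.323, a difference of -0.61 (exact permutation test, 2-sided p = 0.1, adjusted over 7 pairs 0.175). Got2 over Got1 was 0.24, 0.31 and 0.41 in si-scramble and 0.01, 0.03 and -0.03 in si-uc.323, a difference of -0.32 with an SD of 0.09 and 0.03 in the groups (exact permutation p = 0.1, adjusted 0.175). Within each group the arrays thus lay closer together in this ratio than in Got1 (SD 0.15 and 0.23) or Got2 (0.11 and 0.20) alone. Within si-uc.323 this was also so for Oxct1 over Bdh1 (SD 0.13, against 0.25 and 0.28). It was not so there for Bcat2 over Bcat1 (0.49, against 0.12 and 0.39) or Bckdha over Bckdk (0.36, against 0.08 and 0.32).

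For the mitochondrial over the cytosolic branched-chain aminotransferase, Bcat2 over Bcat1, the values were -2.06, -2.11 and -2.19 in si-scramble and -2.70, -3.24 and -2.26 in si-uc.323. The difference of -0.61 ranged from -0.85 to -0.36 when single arrays were left out. Bckdha over its kinase gene Bckdk was 1.13, 1.44 and 1.30 in si-scramble and 0.57, 1.13 and 0.47 in si-uc.323, a difference of -0.56 in which replicate 2 all but met the lowest control. Both pairs had an exact permutation p of 0.1 (adjusted 0.175). The differences were 0.38 for Mdh2 over Mdh1, 0.11 for Idh3a over Idh2 and -0.02 for Sucla2 over Suclg2, all with overlapping groups (exact permutation p of 0.3, 0.6 and 0.9).

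**Figure D4:**
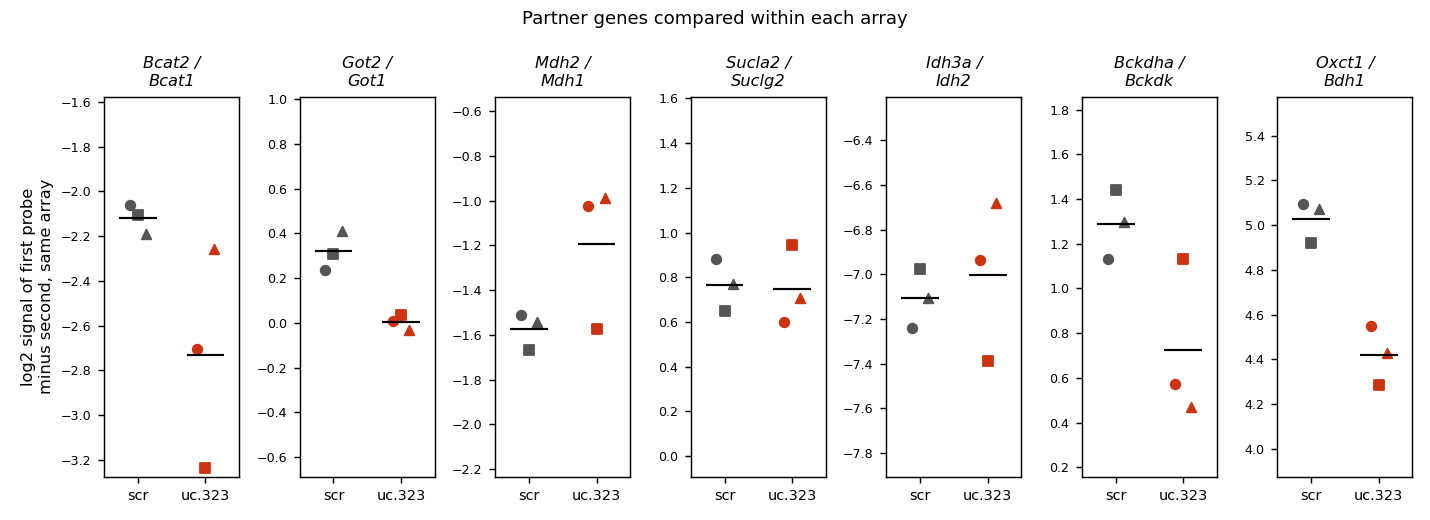
Log2 signal of the first-named gene's probe minus that of the second on the same array, for 7 partner pairs (grey: si-scramble, written scr; red: si-uc.323; symbols give the replicate as in the plot by array; black bars: group means). The panels have different vertical positions and the same vertical span, and the groups lie apart in the panels of Bcat2, Got2, Bckdha and Oxct1.

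Other genes of the same pathways were examined in the same fit. Of 50 such genes 42 were tested, and none passed (limma, adjusted p under 0.05), with 14 at an unadjusted p under 0.05, beside 30.1% of all named genes. Their log2 fold changes had a median of -0.10, with 27 negative and 15 positive values, and 19 had non-overlapping groups, beside 39.1% of all named genes. In the entry of pyruvate 9 of 11 values were negative. The positive ones, named after the values were seen, were Pdhb (0.37, groups not overlapping) and Pdk3 (0.19, groups overlapping). Mpc1, a subunit of the mitochondrial pyruvate carrier, was at 4.25, 4.10 and 4.27 in si-scramble and 3.79, 3.70 and 3.52 in si-uc.323. It narrowly failed to pass (-0.54 ± 0.12; limma, adjusted p = 0.0503). Pdp1, the phosphatase that activates pyruvate dehydrogenase, was next (-0.43, chosen after its values were seen; limma, adjusted p = 0.0543), and the inhibitory kinases Pdk2 and Pdk4, also chosen so, had log2 fold changes of -0.40 and -0.34. Among the other cycle genes Idh1, the cytosolic isocitrate dehydrogenase, had the largest difference (0.42 ± 0.16; limma, adjusted p = 0.142).

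Slc25a1, the carrier that exports citrate for lipid synthesis, had a log2 fold change of 0.56 ± 0.15 (limma, adjusted p = 0.0693), the largest among 10 tested genes that fill or drain the cycle, of which 9 were negative. In the group of branched-chain amino acids and propionyl-CoA 7 of 11 values were positive, led by Mmadhc, a protein of vitamin B12 handling (0.57 ± 0.18; limma, adjusted p = 0.0963). Slc25a1 and Mmadhc were dim, at mean log2 levels of -4.68 and -3.67 in si-scramble, and in both si-uc.323 replicate 3 was highest. The part of brightness in their differences was not tested. The count of these 42 genes past the threshold was 0 to 5 over alternatives that kept all arrays. It was 8 without si-uc.323 replicate 2, namely Gls2, Idh1, Mmadhc, Mpc1, Pdhb, Pdp1, Slc3a2 and Slc7a5.

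**Figure D5:**
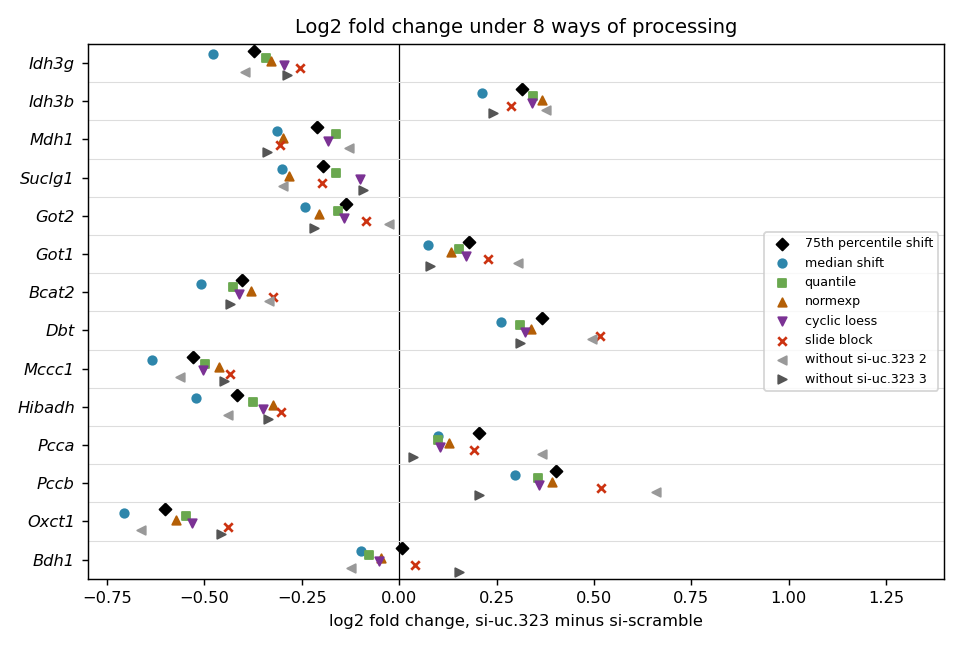
Log2 fold change of the 14 genes with the largest differences in their role groups under 8 ways of processing (symbols), si-uc.323 minus si-scramble. Of these 14 genes, Bdh1 alone has symbols on both sides of 0.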

How the data were processed

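RNA of 6 cultures was labelled with Cy3 and hybridised to Agilent arrays (design 028282). The authors quantified them with Feature Extraction, version 11.0.1.1 in the submitters' processing notes. The deposited intensity values are linear, with background subtraction and detrending done within each array, and come with flags of other kinds, per the file headers. The deposited series table holds log2 values of equal median in all columns and unstated scale and centring, and served as an alternative. The headers name build rn4, whose coordinates were not used.

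Control spots and outlier spots (322 to 594 of 42877 per array) were removed, and no spot was saturated. Log2 intensity was taken relative to the array's 75th percentile, and repeated spots of a probe were averaged. A probe was kept if well above background throughout 1 group or more. Names came from RefSeq (GRCr8) by transcript accession: 18005 of 30367 probes matched 1 gene and 12362 none. limma 3.58.1 (lmFit, eBayes; R 4.3.3) was fitted without covariates to 19920 features, 11580 of them named genes, with Benjamini-Hochberg adjustment over all and a threshold of 0.05. The fit was tested on simulated data with independent noise, equal spread in both groups and no slide or brightness effect. The arrays differ in these respects, so that test does not cover the p-values given here. Plots used matplotlib 3.10.9.

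The 39 genes, the other pathway genes, the pairs and the marker lists were chosen with earlier results of these data known, so no list test was run. The naming rule took, in each of 7 role groups, any gene past the threshold and the 2 with the largest difference, and of the other pathway genes the largest in each group. Other genes are given to account for every member. A gene named by this rule is not reported here. Alternatives were normexp (offset 50), quantile, median-shift and cyclic loess scaling (the last chosen after seeing the data), the series values, 2 other background filters, the mean over probes, replicate and slide blocks, slide 1 alone and leaving out each array. The number of arrays limits the precision.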

Additional observations from a re-analysis of the deposited data

How the results depend on the processing

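Over 17 alternatives, 23 of the 35 genes kept the sign of their log2 fold change, among them Oxct1 (-0.71 to -0.44), Mccc1 (-0.63 to -0.43), Hibadh (-0.52 to -0.30), Bcat2 (-0.51 to -0.32) and Dbt (0.26 to 0.51). The alternatives draw on the same 6 arrays, and the genes named here had large differences in the main fit, so a kept sign is no independent check. The share of all named genes that kept their sign is not given, so the count has no background. The count of the 35 genes past the threshold stayed at 0, other than 1 (lower) under cyclic loess and 2 (higher) without si-uc.323 replicate 2, so that leaving out single arrays gave 0 to 2, with 0 to 2 higher and 0 to 0 lower. The background moved too: of all named genes, against 711, 1182 passed under cyclic loess, 1859, 451 and 292 without si-uc.323 replicate 2, 1 and 3, 0, 12 and 0 without si-scramble replicate 1, 2 and 3, 3 with the slide block and 0 on slide 1 alone. Where few or no genes passed, a count of 0 shows no stability. The median of the 35 was -0.13 with the median shift, which also moved the median of all features from 0.04 to -0.06. Normexp moved the median of all features to -0.07. Without single arrays the median was -0.089 to 0.0078. Of the other pathway genes, 1 passed with quantile normalization, the series values and the mean over probes, 2 with normexp, the median shift and the filter over all 6 arrays, 5 with cyclic loess, and 0 to 8 without single arrays. With no background filter, which adds features at the noise floor, no named gene passed.

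Of the 35 genes, 12 changed sign somewhere, most of them near 0, with Dld (0.23) and Mdh2 (0.17) the farthest from it. With quantile normalization the values were Aldh6a1 -0.011, Bckdhb -0.056, Bdh1 -0.078, Cs 0.046, Dlst 0.0070, Pc -0.10, Sucla2 0.037 and Suclg2 0.023, and with the series values Aldh6a1 -0.0098, Bckdhb -0.055, Bdh1 -0.076, Cs 0.047, Dlst 0.0071, Pc -0.10, Sucla2 0.037 and Suclg2 0.023. With cyclic loess they were Bckdhb -0.039, Bdh1 -0.052, Cs 0.026, Pc -0.11, Sucla2 0.0094 and Suclg2 0.0099. With the median shift they were Aldh6a1 -0.0095, Bckdhb -0.084, Bdh1 -0.098, Pc -0.10 and Slc25a11 -0.076, and with normexp Bdh1 -0.047, Pc -0.11, Slc25a11 -0.011 and Suclg2 0.040. On slide 1 alone, and equally with the slide as a block, they were Cs 0.086, Dlst 0.059, Pc -0.089, Slc25a11 -0.017 and Suclg2 0.12. Without single arrays the ranges were Aldh6a1 -0.016 to 0.21, Bckdhb -0.060 to 0.16, Bdh1 -0.12 to 0.15, Cs -0.074 to 0.031, Dld -0.042 to 0.42, Dlst -0.13 to 0.0078, Ivd -0.21 to 0.0084, Mdh2 -0.064 to 0.44, Pc -0.11 to 0.073, Slc25a11 -0.049 to 0.084 and Suclg2 -0.10 to 0.11. The cause was not tested. Of the pairs, Idh3a over Idh2 was -0.036 with quantile normalization, -0.033 with the series values, -0.081 with cyclic loess and -0.054 to 0.30 without single arrays. Sucla2 over Suclg2 was 0.013 with quantile normalization and 0.013 with the series values, and -0.11 to 0.058 without single arrays.

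Same-numbered replicates deviated together with correlations of 0.20, 0.39 and -0.12, so the numbers were not taken as pairs. With the replicate block 404 named genes passed, against 711, and 0 of the 35 and 0 of the other pathway genes (lowest adjusted p of the 35 0.0858); the medians were the same, -0.03.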
